A study of Mus musculus and Homo sapiens with 33 samples.

Results

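AP-1 is a family of basic leucine zipper (bZIP) transcription factors. Its RNA was followed here in KPL cells, which are murine lung adenocarcinoma cells. Control libraries were compared with libraries of cells given a treatment to delete Lin9. The family was taken as 10 genes by symbol in the deposited count matrix, namely Jun, Junb, Jund, Fos, Fosb, Fosl1, Fosl2, Atf2, Atf3 and Batf3. All 10 were found among 38924 Ensembl gene IDs, and all 10 had enough reads to be tested, with 13355 genes tested in all. The control group was 3 libraries of KPL cells titled minusOHT, whose count columns are headed EtOH (ethanol). The other group was 3 libraries of the same line given 4-hydroxytamoxifen (4-OHT) for 72 hours (10 nm as the labels put it), which per the labels deletes Lin9, the gene of a core subunit of the MuvB complex. The labels name the line and the treatment and no further genotype. No library holds 4-OHT-treated cells that kept Lin9, so loss of Lin9 and exposure to 4-OHT cannot be told apart. Nor are the 3 libraries of a group described as separate cultures, so a p-value reflects no more than how these libraries vary, and that variation could be technical.

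AP-1 factors bind DNA as dimers that are held together by a leucine zipper and touch DNA through an adjacent basic region. JUN proteins pair with each other, with FOS proteins or with ATF and BATF proteins, whereas FOS proteins need a JUN-type partner. Mitogens and stress raise many of these genes within minutes through MAP kinases, and at enhancers AP-1 is a well-known partner of YAP and TAZ bound to TEAD factors. In lung adenocarcinoma the FOS-family member FRA-1, encoded by Fosl1, is known as an output of RAS signalling.

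Library totals lay between 5859826 and 5913942 counted reads. Lin9 fell to 0.711 times its control level (edgeR adjusted p = 0.0011) in the whole-gene count, which also holds reads from exons outside a deleted part. The share of cells in which Lin9 was deleted was not measured here, so deletion in only some of the cells was not tested. Markers of the line were checked. Epithelial genes were abundant, with 4877 to 4932 CPM (read counts on a common scale, set between libraries by TMM) summed over the epithelial and alveolar markers in control and 4693 to 4815 CPM after 4-OHT. Of the 6 of these markers that were tested, 3 passed at an adjusted p under 0.05, or 50%, against 9.79% of all genes. Epcam, Cdh1 and Krt7 were lower in 4-OHT libraries (log2 fold change -0.38, -0.14 and -0.25, edgeR adjusted p at most 0.0010). Krt8, Krt18 and Nkx2-1 did not pass, with log2 fold changes of 0.06, -0.00065 and -0.46. The part of these markers in the results below was not tested. Of the alveolar markers, Sftpc was at 0 in every library, Sftpb had at most 1 read and Hopx at most 3 reads in any library. The lung lineage factor Nkx2-1 was at 6.51 CPM in control and 4.74 CPM after 4-OHT. Markers of leukocytes, fibroblasts and endothelial cells each summed to at most 10.6 CPM in any library.

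After 4-OHT, 3 of the 10 AP-1 genes were higher, none was lower and 7 did not pass the test. Fosl1 rose 1.22-fold, Jund 1.18-fold and Jun 1.32-fold. In bulk RNA, a change in the share of cells that express a gene and a change in RNA per cell cannot be told apart. A call here is an adjusted p under 0.05 in edgeR's quasi-likelihood test with Benjamini-Hochberg adjustment over all genes tested. By that rule 9.79% of all genes were called, 4.61% as higher and 5.17% as lower. The median log2 fold change of the 10 genes was 0.05, and that of all genes tested was 0.00052. The CPM values of the groups did not overlap for 5 of the 10 genes (Jun, Jund, Fosl1, Fosl2 and Batf3), against 24.3% of all genes. Each of the 10 had the same direction and fell on the same side of an FDR of 0.05 in the authors' deposited table, where the log2 fold changes were 0.28 for Fosl1, 0.24 for Jund and 0.40 for Jun.

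**Figure D1:**
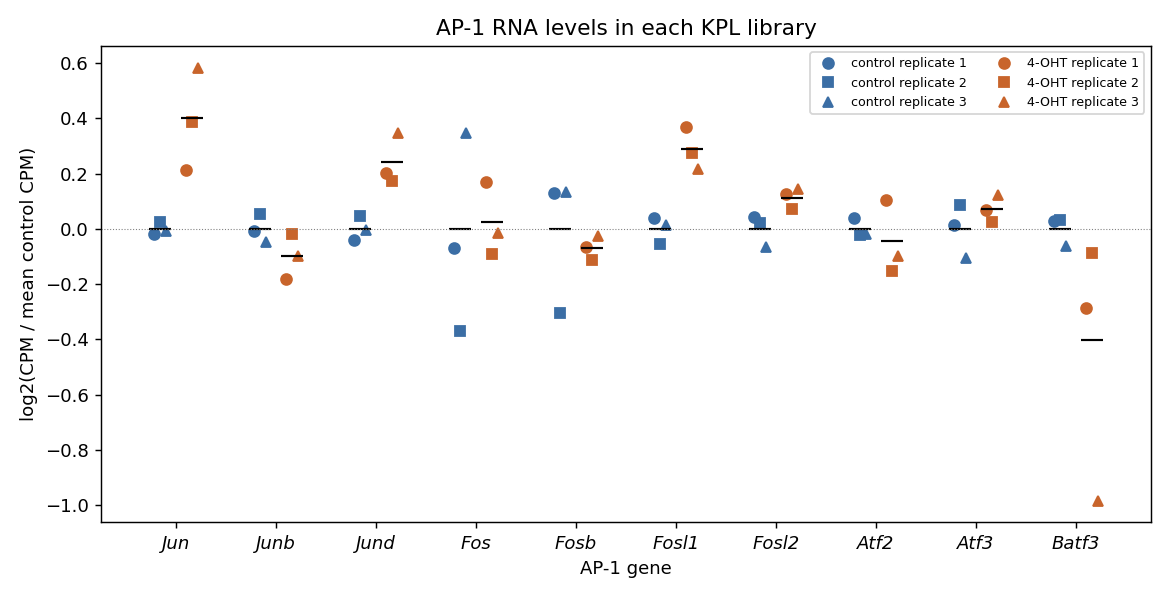
RNA level of each AP-1 gene in each library as log2 of its CPM over the mean of the 3 control libraries; blue symbols are control and orange symbols 4-OHT libraries, the symbol shape gives the replicate number and the black lines the group means. For Jun, Jund and Fosl1 all 3 orange symbols lie above all 3 blue ones, and the genes with few reads (Fos, Fosb, Batf3) scatter most.

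The JUN genes encode the partners that FOS proteins need to bind DNA. Jun, the founding member, lies on chromosome 4 (start 95049036, end 95052222, by RefSeq coordinates on GRCm38.p6). It stood at 23.8, 24.6 and 24.0 CPM in the control libraries and at 27.98, 31.5 and 36.1 CPM in the 4-OHT libraries. The 3 control values lay within 1 CPM of each other and the 4-OHT values were all above them and more spread out, with replicate 3 the highest. The log2 fold change was 0.40 (standard error 0.10, edgeR adjusted p = 0.0027, higher in 3 of 3 libraries). Jun has few reads, 139 to 213 a library, and its call was the least stable of the 3. Without 4-OHT replicate 3 the log2 fold change was 0.30 with an adjusted p of 0.074, and in DESeq2 the adjusted p was 0.067. DESeq2 gave an adjusted p to 9 of the 10 genes (not to Batf3) and called 2 of them, Fosl1 and Jund, against 4.53% of the 12578 genes to which it gave an adjusted p.

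Jund, which encodes the JUN protein known for steady expression in resting cells, lies on chromosome 8 (70697739 to 70700616). Its control libraries gave 95.2, 101.0 and 97.5 CPM, and its 4-OHT libraries 112.6, 110.5 and 124.4 CPM. As for Jun, every 4-OHT value exceeded every control value and replicate 3 was the highest. The log2 fold change was 0.24 (standard error 0.05, edgeR adjusted p = 0.00056), and the call was kept in all 13 alternatives (adjusted p up to 0.029).

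Junb, whose protein often counters JUN at proliferation genes, lies on the same chromosome (84976909 to 84978748). Its levels were 162.6, 170.0 and 158.4 CPM in control and 144.5, 161.6 and 152.9 CPM after 4-OHT. The groups overlapped through 4-OHT replicate 2. Junb did not pass the test (log2 fold change -0.10, standard error 0.05, edgeR adjusted p = 0.201, unadjusted p = 0.038). The 95% interval of its fold change, 0.878 to 0.996, lay below those of Jun (1.15 to 1.52) and Jund (1.099 to 1.27), although the difference between the genes was not tested.

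The JUN genes can also be compared within each library, where scaling plays no part. The ratio of Jund reads to Junb reads was 0.585, 0.594 and 0.616 in control libraries and 0.779, 0.684 and 0.814 in 4-OHT libraries. The ratio of Jun to Junb was 0.146, 0.144 and 0.152 in control and 0.194, 0.195 and 0.236 in 4-OHT libraries. Neither ratio overlapped between the groups. The ratio of Jun to Jund did overlap, at 0.243 to 0.250 in control and 0.248 to 0.291 in 4-OHT libraries. These ratios were given no test, since an exact permutation test of 3 against 3 libraries cannot give a p below 0.10.

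The JUN genes have no introns, so their RefSeq span could serve as a length and their levels could be set side by side. Per kilobase of span, Junb was the most abundant at 88.9 ± 3.20 CPM in control (mean ± SD, n = 3). Jund followed at 34.0 ± 1.02 and Jun at 7.57 ± 0.124 CPM per kilobase. In 4-OHT libraries the order was the same, with Junb at 83.2 ± 4.66, Jund at 40.2 ± 2.60 and Jun at 10.01 ± 1.29 CPM per kilobase. No 2 of the 3 genes came near each other relative to these spreads in either group. Of the summed JUN level per kilobase, Junb held 68.1% ± 0.552 in control and 62.3% ± 2.09 in 4-OHT libraries. The share of Jund went from 26.1% ± 0.473 to 30.2% ± 1.73 and that of Jun from 5.80% ± 0.103 to 7.48% ± 0.673.

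**Figure D2:**
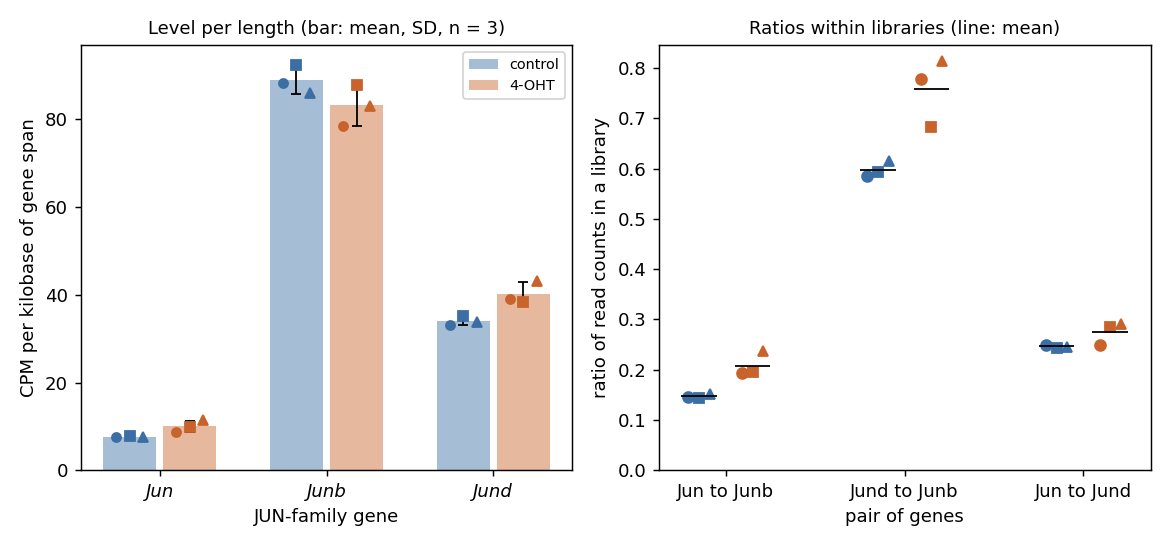
Left, level of the JUN genes in CPM per kilobase of RefSeq span, with bars for the mean, error bars for the SD of 3 libraries and symbols for libraries (blue control, orange 4-OHT). Right, ratios of read counts within each library with black lines for means; Jun to Junb and Jund to Junb are higher in all 3 4-OHT libraries than in any control library, whereas Jun to Jund overlaps.

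The windows just upstream of Jun and Fos are shown because genes of this family are known to be controlled partly by AP-1 and ATF dimers at their own promoters. Jun was higher and Fos was not called. Each window holds the 250 bases before the annotated start, from RefSeq with build GRCm38.p6, 5′ to 3′ on the strand of the gene. Capitals mark matches to the motifs named next. The window of Jun is chr4:95052223-95052472 on the minus strand, and that of Fos is chr12:85473640-85473889 on the plus strand.
Jun: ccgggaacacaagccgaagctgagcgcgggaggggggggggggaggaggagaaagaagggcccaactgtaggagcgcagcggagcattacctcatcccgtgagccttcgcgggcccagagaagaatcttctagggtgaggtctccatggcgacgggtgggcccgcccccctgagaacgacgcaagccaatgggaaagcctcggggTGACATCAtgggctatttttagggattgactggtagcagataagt
Fos: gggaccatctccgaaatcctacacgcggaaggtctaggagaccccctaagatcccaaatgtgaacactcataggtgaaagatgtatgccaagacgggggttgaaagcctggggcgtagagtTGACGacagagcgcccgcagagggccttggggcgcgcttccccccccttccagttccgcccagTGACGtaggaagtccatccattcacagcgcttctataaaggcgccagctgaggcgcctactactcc

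The search covered 6 motifs on both strands, in the windows of the 9 AP-1 genes with an entry (Fosl1 had none) and in all 32851 windows of the same length. The motifs were chosen for this family and its partners, and TGACG was added after the windows had been looked at. TGACATCA, a variant of the response element bound by JUN and ATF2 dimers, was present in the Jun window, starting 45 bases before the start, and in none of the other 8. Of all windows, 2.93% held it. TGACG is the core shared with the full cAMP response element TGACGTCA. It was present in the windows of Fos (129 and 66 bases before the start), Junb, Fosb and Atf3. Of all windows, 17.8% held TGACG. G and C made up 61.2% of the Jun window and 58.4% of the Fos window, against a median of 52.4% over all windows. The windows were not matched for this content. None of the 9 windows held TGACGTCA itself (1.55% of all windows), the AP-1 site TGACTCA (4.46%) or the TEAD core GGAATG (12.6%). Nor did any hold TTTGAA (16% of all windows), a form of the cell cycle homology element that MuvB complexes bind through LIN54. The Jund window held none of the 6. A match is a description of letters and no evidence of binding, and sites beyond these windows were not searched.

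The FOS genes encode partners that bind DNA only with a JUN-type protein. Fosl1, which encodes FRA-1, lies on chromosome 19 (5447698 to 5455938). It gave 97.6, 91.5 and 96.0 CPM in control and 122.6, 115.0 and 110.3 CPM after 4-OHT. The groups were apart by more than the spread within either, and here 4-OHT replicate 3 was the lowest of its group. The log2 fold change was 0.29 (standard error 0.05, edgeR adjusted p = 3.0e-05, higher in 3 of 3 libraries), and the call was kept in all 13 alternatives (adjusted p up to 0.0040). By p-value Fosl1 ranked 270 of 13355 genes, Jund 420 and Jun 608. The span of Fosl1 overlaps that of Ccdc85b, and whether counting used strand is not given in the sources used here. Ccdc85b did not pass the test, with 32.5 ± 0.663 CPM in control and 36.1 ± 2.04 CPM after 4-OHT (log2 fold change 0.15, edgeR adjusted p = 0.320).

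Fosl2, which encodes the related FRA-2, stood at 106.8, 105.1 and 98.9 CPM in control and 112.9, 108.8 and 114.4 CPM after 4-OHT. The groups did not overlap, but by a narrow margin, and Fosl2 did not pass the test (log2 fold change 0.11, standard error 0.05, edgeR adjusted p = 0.185). Its 95% interval was 1.01 to 1.16-fold. The ratio of Fosl1 to Fosl2 reads overlapped between the groups, at 0.871 to 0.971 in control and 0.964 to 1.09 in 4-OHT libraries.

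Fos and Fosb, the immediate-early members that serum raises for a short time, had few reads in both groups. Fos was counted at 21, 17 and 28 reads in control and 25, 21 and 22 reads in 4-OHT libraries, or 3.77 ± 0.952 and 3.84 ± 0.360 CPM. Fosb was counted at 42, 31 and 42 reads in control and 37, 36 and 38 reads in 4-OHT libraries, or 6.57 ± 1.08 and 6.27 ± 0.188 CPM. For both genes the 4-OHT values lay inside the control range. Neither passed the test, and the 95% intervals of the fold change were wide, 0.711 to 1.46 for Fos and 0.725 to 1.254 for Fosb. The 1.22-fold of Fosl1 lies inside both intervals, so these libraries do not exclude a change of that size for Fos or Fosb. Summed over the 4 FOS genes, with no test, the level was 208.97 ± 5.45 CPM in control and 238.1 ± 6.89 CPM after 4-OHT. This sum includes Fosl1 and was not scaled by gene length, so it does not show a rise across the FOS genes. The sum over the 3 JUN genes overlapped between the groups, at 279.9 to 295.5 CPM in control and 285.0 to 313.5 CPM after 4-OHT. That over all 10 AP-1 genes did not overlap, at 723.8 to 744.4 CPM in control and 756.9 to 789.0 CPM after 4-OHT.

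**Figure D3:**
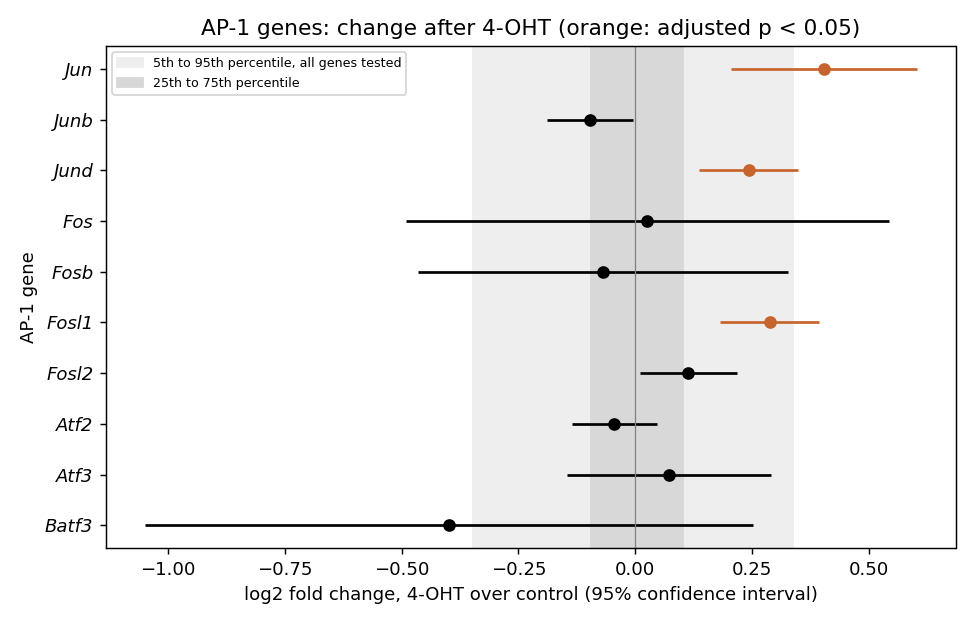
Log2 fold change of 4-OHT over control for each AP-1 gene with its 95% confidence interval from edgeR; orange marks an adjusted p under 0.05, and grey bands give the central ranges over all 13355 genes tested. Jun, with 0.40, lies above the 95th percentile of all genes (0.34), Fosl1 and Jund lie inside it, and the widest intervals are those of Fos, Fosb and Batf3.

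The ATF and BATF members pair with JUN proteins and shift the dimer toward response elements or composite sites. Atf2, whose protein is activated by stress kinases, gave 223.5, 213.8 and 214.8 CPM in control and 233.5, 195.7 and 202.8 CPM after 4-OHT. The 4-OHT group held both the highest and the lowest value, and no call was made (log2 fold change -0.05, edgeR adjusted p = 0.644). Atf3, a stress-induced repressor, was at 21.4, 22.5 and 19.7 CPM in control and 22.2, 21.6 and 23.1 CPM after 4-OHT. The groups overlapped (log2 fold change 0.07, edgeR adjusted p = 0.788), and the 95% interval ran from 0.904 to 1.22-fold. Batf3, best known for the development of dendritic cells, was counted at only 16, 16 and 15 reads in control and 13, 15 and 8 reads in 4-OHT libraries. The groups did not overlap in CPM, the 95% interval ran from 0.483 to 1.19-fold, and no call was made (log2 fold change -0.40, edgeR adjusted p = 0.543). Atf3 and Batf3 are neighbours on chromosome 1, 61.4 kb apart in the RefSeq annotation.

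Fosl1, as the AP-1 gene with the smallest p, was compared with other tested genes for the shape of its profile over the 6 libraries. The search took tested genes that have a symbol, apart from predicted genes, genes with Rik symbols and pseudogenes. The nearest by Euclidean distance of centred log2 CPM were Dock11 (0.068), Ankrd28 (0.075) and Rfc5 (0.076), where 0 would be an identical profile. Dock11, a guanine nucleotide exchange factor gene, went from 64.1 ± 1.87 to 77.7 ± 5.44 CPM, and Ankrd28 from 103.5 ± 6.19 to 125.9 ± 7.84 CPM. Rfc5, a clamp loader gene, went from 41.5 ± 0.986 to 51.1 ± 2.70 CPM. These genes were picked for a profile like that of Fosl1, so their direction follows from the choice and is given as a description.

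Among 18 tested bZIP genes outside the 10, which include further dimer partners, 2 were higher, 2 were lower and 14 did not pass, so that 22.2% were called, against 9.79% of all genes, with a median log2 fold change of 0.07. Jdp2, whose protein dimerizes with JUN and represses AP-1 sites, was lower. It stood at 26.2, 26.3 and 23.5 CPM in control and at 17.1, 18.7 and 18.5 CPM after 4-OHT. The groups were well separated, with a log2 fold change of -0.48 (standard error 0.11, edgeR adjusted p = 0.0010) and a call kept in all 13 alternatives (adjusted p up to 0.032). The ratio of Jdp2 to Jun reads was 1.101, 1.07 and 0.979 in control libraries and 0.612, 0.594 and 0.512 in 4-OHT libraries. Jdp2 lies between Fos and Batf on chromosome 12, 121 kb from Fos and 46.8 kb from Batf. Neither neighbour passed the test (log2 fold change 0.03 for Fos and -0.34 for Batf), and Batf was at no more than 2.58 CPM in any library.

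The other 3 calls among these bZIP genes were small or unstable. Mafk, a small MAF gene, rose from 43.0 ± 2.30 to 51.3 ± 3.11 CPM, and Ddit3, the CHOP gene, from 13.2 ± 1.90 to 17.8 ± 1.07 CPM. Atf4, named after its value was seen, fell by 0.12 on the log2 scale (adjusted p = 0.024). Each of these 3 calls was lost in DESeq2 (adjusted p 0.204, 0.214 and 0.171). The Mafk call was also lost without control replicate 1, 4-OHT replicate 2 or 4-OHT replicate 3 (adjusted p 0.079 to 0.133). That of Ddit3 was lost without control replicate 1 or 2 or 4-OHT replicate 2 or 3 (adjusted p 0.052 to 0.156). That of Atf4 was lost without control replicate 1 or 3 or 4-OHT replicate 1 or 2 (adjusted p 0.107 to 0.153).

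**Figure D4:**
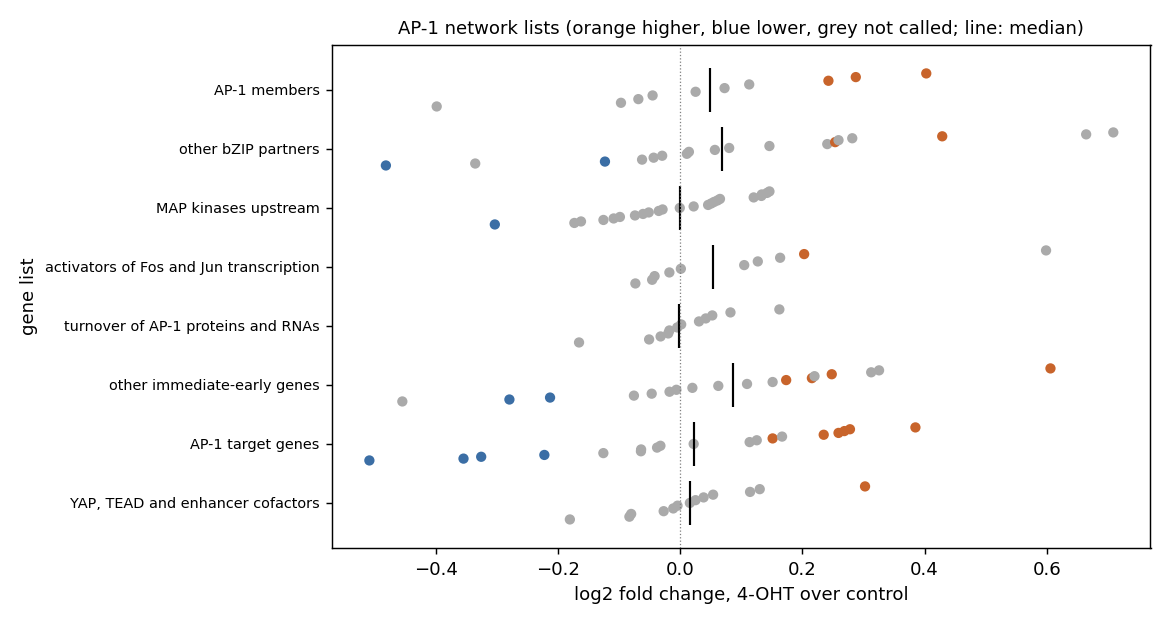
Log2 fold change of every tested gene in the AP-1 list and in 7 lists of related genes; orange points were called higher, blue points lower and grey points were not called, and black lines give the median of a list. The called points of the target genes lie on both sides of 0, and the upstream kinase and turnover lists are almost wholly grey.

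Genes that act upstream of AP-1 were counted in the same way, and no list was tested against the other genes. Of 23 tested MAP kinase pathway genes, 1 was lower and none higher (median -0.00082), against 9.79% called among all genes. The 1 was Mapk13, which encodes p38 delta, at 62.3 ± 2.04 CPM in control and 50.5 ± 2.15 CPM after 4-OHT (log2 fold change -0.30, standard error 0.07, edgeR adjusted p = 0.00083). Of 10 tested activators of Fos and Jun transcription, 1 was higher, a share near that of all genes. This was Mkl1, a coactivator of serum response factor, which went from 116.8 ± 2.09 to 134.4 ± 3.22 CPM (log2 fold change 0.20). None of 12 tested genes for turnover of AP-1 proteins and RNAs was called (edgeR; 0 at an adjusted p, 1 at an unadjusted p under 0.05, 0 in DESeq2). Ddb1, a subunit of the ubiquitin ligase that can degrade JUN, was the most abundant of them, at 1147 ± 17.7 CPM in control and 1107 ± 24.99 CPM after 4-OHT. Of 13 YAP, TEAD and enhancer cofactor genes, only Wwtr1, the TAZ gene, was called, or 7.69%, against 9.79% of all genes. It stood at 178.2, 177.7 and 186.5 CPM in control and 225.2, 223.0 and 220.8 CPM after 4-OHT. Its log2 fold change was 0.30 (edgeR adjusted p = 1.0e-08), and the groups did not overlap. Such a lack of overlap held for 5 of the 13 genes, against 24.3% of all genes. Across the AP-1 list and the 7 lists of related genes, 5 genes were listed at 0 reads in every library. They were Nrl, Srf, Fbxw7, Csrnp1 and Timp1, singled out once their values were known, and the span of Timp1 overlaps that of Syn1. Srf and Fbxw7 are known to be expressed in most cell types, and whether a 0 here means no RNA or reads that were not assigned to the gene was not tested.

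Other immediate-early genes, which answer the same signals as Fos and Jun, moved both ways. Of 18 tested, 4 were higher and 2 lower (median 0.09), so that 33.3% were called, against 9.79% of all genes. Dusp1, which encodes a phosphatase that switches off MAP kinases, gave 30.3, 35.4 and 29.0 CPM in control and 47.1, 49.3 and 47.7 CPM after 4-OHT. That was the largest change in this list, with a log2 fold change of 0.61 (standard error 0.08, edgeR adjusted p = 1.3e-08). Klf6, a zinc finger factor gene, rose from 289.7 ± 12.1 to 344.0 ± 14.8 CPM. Dusp5, a phosphatase gene for nuclear ERK, fell from 107.8 ± 1.31 to 93.0 ± 3.62 CPM. The remaining calls, named after their values were seen, were Klf10 (log2 fold change 0.22), Ier3 (0.17) and Ier2 (-0.28). All 3 were lost in DESeq2, with adjusted p of 0.224, 0.302 and 0.102, as was Dusp5 (0.062). The Klf10 call was also lost without control replicate 2 or 3 or 4-OHT replicate 1 or 2 (adjusted p 0.058 to 0.152). That of Ier3 was lost without any 1 library other than control replicate 1 (adjusted p 0.075 to 0.156).

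Of 19 tested genes known as AP-1 targets, 6 were higher, 4 lower and 9 did not pass, so that 52.6% were called, against 9.79% of all genes, with a median log2 fold change of 0.02. The list was chosen with earlier results of these data known and was not matched to all genes for read depth, so the shares are a description. Ezr, which encodes the membrane linker ezrin, rose from 955.6 ± 30.2 to 1151 ± 14.8 CPM (log2 fold change 0.27, standard error 0.03, edgeR adjusted p = 3.8e-12). Ptgs2, which encodes cyclooxygenase-2, rose from 255.2 ± 10.2 to 300.3 ± 12.1 CPM. Plau, the urokinase gene and a classical target of FRA-1, went the other way. It stood at 233.8, 236.8 and 236.0 CPM in control and 190.6, 183.2 and 189.9 CPM after 4-OHT, a log2 fold change of -0.33 (standard error 0.04, edgeR adjusted p = 4.6e-10). Further calls, named after their values were seen, included Sprr1a (0.39), Ereg (0.28), Mmp14 (0.26) and Hmga2 (0.15) above control and Spp1 (-0.51) and Vegfa (-0.22) below it. Sprr1a and Ereg were lost in DESeq2 (adjusted p 0.069 and 0.061), and Spp1 was lost without control replicate 2 or 4-OHT replicate 3 (adjusted p 0.109 and 0.116).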

How the data were processed

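The 6 RNA-seq libraries of the series (polyadenylated RNA, 3 control and 3 4-OHT) were used, while the 27 ChIP-seq samples of the series were not used here. The count matrix deposited by the authors holds read counts per Ensembl gene without normalisation. The authors' deposited comparison table holds log2 fold changes and log2 mean CPM, per the file headers. It also holds a p-value and an FDR per gene, per the file headers. The submitters' processing notes name TopHat2 2.1.0, Bowtie 1.1.2, Bowtie2, bedtools 2.26.0 and edgeR, with no roles. Which program counted the reads, and whether strand was used, is not given in the sources used here.

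Of 38951 lines, 27 that repeated an ID with the same counts (0.109% of the reads) were kept once. In R 4.3.3 with edgeR 4.0.16, genes were filtered with filterByExpr (minimum count 10, minimum total 15), scaled by TMM and compared by a robust quasi-likelihood F test (two-sided) over all 6 libraries without a replicate block. P-values were adjusted by Benjamini-Hochberg over 13355 genes, and SE and 95% intervals come from the same fit. No libraries were merged, since replicate pairs varied beyond sampling noise (chi-square 1.26 to 1.48 per degree of freedom). The procedure was tested on simulated data. Alternatives were 2 other scalings, 2 other filters, a replicate block, DESeq2 1.42.0, limma-voom 3.58.1 and leaving out each library.

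The AP-1 genes and the lists were chosen with earlier results of these data known, and no list was matched to all genes for read depth. Named genes were the AP-1 genes, Lin9, the 3 called genes with the smallest p per other list (or the most abundant gene where none was called) and the 3 nearest profiles to Fosl1. Those profiles came from tested genes with a symbol that are not predicted genes, Rik genes or pseudogenes. Exon lengths were not used here, so levels were compared per length only among the intronless JUN genes. Intervals cover counting and library error as modelled by edgeR. A called target gene is counted in its list but not reported here by name.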

Additional observations from a re-analysis of the deposited data

How the results depend on the processing

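The rises of Fosl1 and Jund passed the threshold in all 13 alternatives, and that of Jun in 11, so that 3 AP-1 genes were called in each alternative except DESeq2 and the fit without 4-OHT replicate 3, which gave 2. None was called lower in any alternative. Over all genes DESeq2 called 570, against 1307, and the cause was not tested. Among genes to which it gave an adjusted p, it called 1 of 16 other bZIP genes, against 4 of 18 in the main fit. Of 17 other immediate-early genes it called 2, against 6 of 18. Its share over all genes was 4.53%, against 9.79%. With library totals alone as the scaling, 2 activators of Fos and Jun transcription were called, against 1. Leaving out 1 library at a time gave 911 to 1185 calls over all genes, 2 to 3 among the other bZIP genes (2 without control replicate 1 or 4-OHT replicate 2 or 3), 1 to 2 among MAP kinase genes (2 without 4-OHT replicate 1), 1 to 2 among activators (2 without control replicate 2 or 4-OHT replicate 3) and 0 to 1 among turnover genes (1 without control replicate 3). With 1 library at a time left out of the group means, the rise in the Jund share was 3.51 to 5.11 percentage points, against 4.12. Among the AP-1 genes that were not called, the sign of the log2 fold change depended on single libraries for Fos, Fosb and Atf2, and not for Junb, Fosl2, Atf3 or Batf3. Fos ran from -0.13 (without control replicate 2) to 0.24 and was -0.0077 without control replicate 1 and -0.051 without 4-OHT replicate 1. Fosb ran from -0.20 to 0.0021 and was 0.0012 without control replicate 1 and 0.0021 without control replicate 3, and Atf2 was 0.0059 without 4-OHT replicate 2. With the replicate number as a replicate block, 1244 genes were called, 3 of them AP-1 genes, and the calls of the named genes stayed except that of Ier3 (adjusted p = 0.050). Ier3 was also lost with no low-count filter (adjusted p = 0.058). Libraries with the same number did not deviate together (correlation -0.0097, 0.0096 and -0.026 for numbers 1 to 3), and not every library correlated best with its own number. No pairing by number was seen, though a weak one could be missed beside counting noise. A longest-transcript length was not run. Counts of 8 to 42 reads limit what can be seen for Fos, Fosb and Batf3.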
